A study of Mus musculus with 18 samples.

Results

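Kidneys of TIMP2-/- mice were compared 3 days after obstruction of the ureter and 3 days after a sham operation. The comparison used the 3 arrays labelled TIMP2 UUO and the 3 labelled TIMP2 sham, which are 6 of the 18 arrays of the series. UUO is unilateral ureteral obstruction, for which the right ureter was tied at 2 places, and the sham mice had the same surgery without the tie. All mice were of the C57BL/6 strain, both groups were homozygous for the TIMP2 knockout, and total RNA came from the obstructed or sham-operated right kidney, frozen at once. The other 12 arrays came from wild-type (WT) and TIMP3-/- mice with the same operations. Age, sex and the design of the deleted allele are not given in the sources used here, and the labels call the samples biological replicates without tying a kidney to a litter or a surgery day.

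TIMP2 is a secreted inhibitor of matrix metalloproteinases. It also has a role in their activation, because a complex of TIMP2 with the membrane protease MMP14 presents the proform of MMP2 for cleavage. Obstruction raises pressure in the tubules and is a common model of tubular injury followed by inflammation, matrix deposition and loss of nephron function. The values below ask which parts of that response were measurable in kidneys of TIMP2-/- mice.

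Each array gave 1 linear intensity per probe set, and 22626 probe sets that are not controls were tested. Where several probe sets named the same gene, the brightest stood for it, which left 12393 genes. Differences are log2 fold changes of UUO over sham with the standard error (SE) of a limma fit to all 18 arrays, n = 3 per group, and a gene passed at a Benjamini-Hochberg adjusted p under 0.05 over all probe sets. "Rose" and "fell" are used for genes that passed. Median intensities were 204, 208 and 202 on the 3 sham arrays and 232, 233 and 215 on the 3 UUO arrays. The 25th percentile was 56.8 to 63.8 on these 6 arrays, so values near or below it are close to background and fold changes against them are inexact in size. Genes of the kidney were bright in both groups, as for Umod (uromodulin of the thick ascending limb), at 21046 to 24494.

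The replicates were not equally alike. UUO 1 and UUO 2 differed by an SD of 0.206 on the log2 scale over probe sets, and sham 1 and sham 2 by 0.238. Pairs with replicate 3 differed by 0.432 and 0.440 in UUO and by 0.435 and 0.371 in sham. On the first principal component, which held 79.6% of the variance of the 6 arrays, UUO 1 and UUO 2 lay at -50.2 and -50.6 and UUO 3 at -20.3. The sham arrays lay at 36.1, 36.8 and 48.2. UUO 3 was farthest from the other UUO arrays for 65.0% of genes, and sham 3 from the other sham arrays for 51.0%. Genes that passed as higher had a median change of 1.03 on UUO 1, 1.08 on UUO 2 and 0.76 on UUO 3, and genes that passed as lower had -0.73, -0.75 and -0.43. The change was smallest on UUO 3, and a shared sign says nothing here because the same arrays chose these genes. With replicates 1 and 2 of each group averaged to 1 sample (called averaging from here on), 2440 probe sets passed in place of 7922, and with both replicate 3 arrays left out 6654 passed. Below, a call that a single array, averaging, centring or the pairing of same-numbered TIMP2-/- arrays (a replicate block in the fit of all 18 arrays) ended is named beside its gene, as is a list count of 3 or more that one of them moved by over 1.5 times. Suffixed probe sets are those whose names mark a possible match to several transcripts. Smaller list counts often changed by 1 or 2 genes and are descriptions. Genes named as not passing were chosen after their values were seen.

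**Figure D1:**
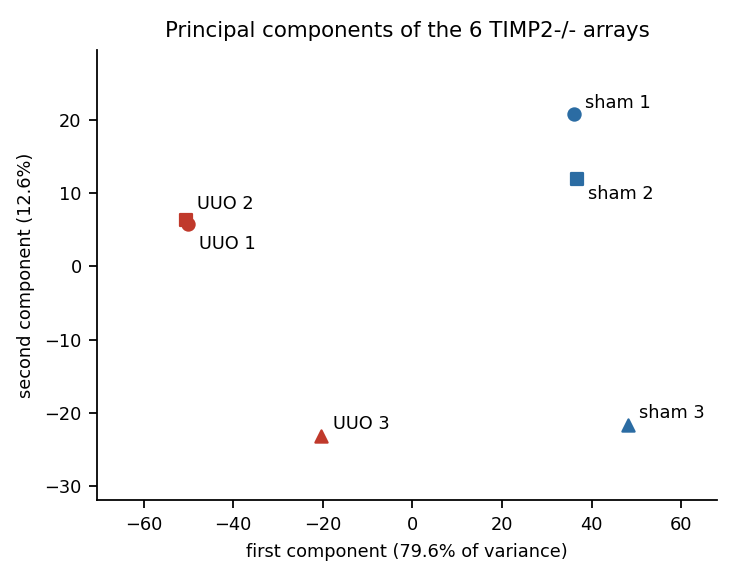
First and second principal components of the log2 intensities of 12393 genes on the 6 TIMP2-/- arrays, in component units, with the share of variance on each axis; blue points are sham and red points UUO, labelled by replicate. UUO and sham lie on opposite sides of 0 on the first axis, and replicate 3 of each group lies apart from replicates 1 and 2 on the second.

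Timp2 kept a measurable signal in these kidneys. Its brightest probe set read 681, 571 and 668 on the sham arrays and 832, 897 and 742 on the UUO arrays. The groups did not overlap, but the difference did not pass (0.36 ± 0.16, adjusted p = 0.082). Of 6 probe sets, 1 passed, at 0.54. In WT the brightest probe set read 1179 ± 263 in WT sham and 4138 ± 587 in WT UUO (SD, n = 3). TIMP2-/- lay below WT by 2.32 on the log2 scale after UUO (-2.32, limma adjusted p = 1.45e-06), and after sham the difference of -0.86 did not pass (adjusted p = 0.143). The sources used here do not give where the probes lie relative to the deleted part, so the signal does not show whether any functional transcript was made.

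Obstruction changed a large part of the measured genes in TIMP2-/- kidney. Among 22626 probe sets 7922 (35.0%) passed, and among 12393 genes 4616 (37.2%). Genes higher after UUO numbered 1940 (15.7%) and genes lower 2676 (21.6%), and these shares are the background for the counts that follow. The large changes leaned the other way: beyond 1 on the log2 scale 928 genes rose and 455 fell, beyond 2 the counts were 222 and 41, and beyond 3 they were 57 and 6. The values of the groups did not overlap for 6966 genes (56.2%). The median log2 fold change over all genes was -0.12. Of the called probe sets 40.2% were higher, and 25.5% after each array was centred on its median, which takes out a shift of 0.15 between the group medians. The number of called probe sets was 4184 without UUO 1, 4033 without UUO 2 and 4859 without sham 3.

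Havcr1 and Lcn2, markers of tubular injury, were among the genes with the largest rises. Havcr1, which encodes the receptor KIM-1 of injured proximal tubule cells, read 145, 125 and 155 on the sham arrays and 11806, 11723 and 9817 on the UUO arrays, a 78.4-fold rise (6.29 ± 0.21, adjusted p = 4.87e-11). Lcn2, the iron-binding protein NGAL, read 218, 250.0 and 253 on the sham arrays and 16152, 13002 and 8829 on the UUO arrays (5.68 ± 0.34, adjusted p = 5.32e-08). In both genes every UUO array lay far above every sham array. Serpina10, an inhibitor of coagulation factors, read 104, 114 and 139.5 on the sham arrays and 4501, 4210 and 3464 on the UUO arrays (5.09 ± 0.27, adjusted p = 2.12e-08). Vcam1, an adhesion molecule for leukocytes, read 153, 124 and 113 on the sham arrays and 4430, 4669 and 3180 on the UUO arrays (4.97 ± 0.25, adjusted p = 2.12e-08). Cd44, the receptor for hyaluronan, read 41.4, 63.1 and 61.6 on the sham arrays and 1780, 1896 and 1131 on the UUO arrays (4.84 ± 0.31, adjusted p = 8.99e-08), with sham values at background. UUO 3 was the lowest of the UUO arrays for all 5 of these genes. Aoc1, the histamine-degrading diamine oxidase, read 260.2, 218 and 310.0 on the sham arrays and 5044, 5417 and 5030 on the UUO arrays (4.31 ± 0.24, adjusted p = 2.68e-08). Ubd, a ubiquitin-like modifier induced by cytokines, read 57.6, 45.5 and 72.2 on the sham arrays and 1529, 1606 and 984 on the UUO arrays (4.55 ± 0.28, adjusted p = 6.58e-08). Sprr2f, a small proline-rich protein of stressed epithelia, read 44.4, 47.0 and 34.1 on the sham arrays and 873, 918 and 1167 on the UUO arrays (4.56 ± 0.54, adjusted p = 3.17e-05). For Aoc1 the 3 UUO arrays were nearly level, while Sprr2f was highest on UUO 3 and near background in sham.

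Among the genes with the largest falls Ces1g, a carboxylesterase, read 649, 835 and 772 on the sham arrays and 33.7, 48.8 and 80.4 on the UUO arrays (-3.88 ± 0.48, adjusted p = 4.61e-05). Pvalb, the calcium-binding parvalbumin of the distal convoluted tubule, read 1246, 952 and 1081 on the sham arrays and 41.2, 94.2 and 113 on the UUO arrays (-3.84 ± 0.28, adjusted p = 3.34e-07). Cyp2d12, a cytochrome P450, read 2302, 2177 and 2422 on the sham arrays and 144, 173 and 490.4 on the UUO arrays (-3.32 ± 0.66, adjusted p = 0.00206). In each UUO 3 kept more signal than UUO 1 and UUO 2. Hsd3b2, a steroid dehydrogenase, read 2846, 2540 and 2322 on the sham arrays and 183, 307 and 487 on the UUO arrays (-3.09 ± 0.59, adjusted p = 0.00159). Car14, a membrane carbonic anhydrase, read 3287, 3408 and 3820 on the sham arrays and 414, 468 and 946 on the UUO arrays (-2.62 ± 0.45, adjusted p = 0.000778). Wfdc15b, a small secreted protein with a WAP domain, read 10076, 11022 and 10097 on the sham arrays and 1485, 1518 and 2397 on the UUO arrays (-2.57 ± 0.48, adjusted p = 0.00135). These genes were chosen among those whose groups did not overlap. Because whole kidneys were measured, fewer cells of a type and less RNA per cell cannot be told apart in any of these values.

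**Figure D2:**
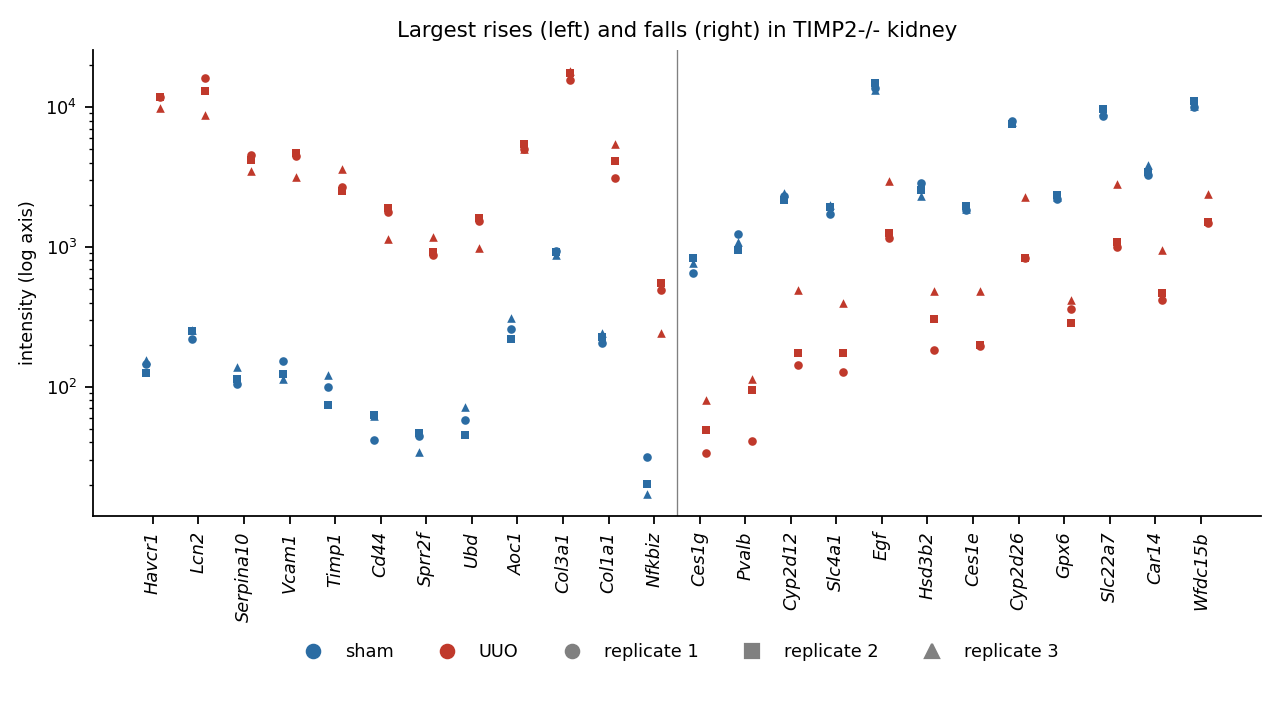
Intensity on each TIMP2-/- array (log axis) of the 12 genes with the largest rises (left) and the 12 with the largest falls (right); blue is sham, red is UUO, and the marker shape gives the replicate. The genes were chosen among those whose groups did not overlap, and in each of the 12 falling genes UUO 3 (triangle) is the highest UUO array.

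Promoters of genes that moved were read for short motifs of known regulators, and 6 stretches of 100 bases are shown as examples, chosen after the matches were seen. RefSeq promoter windows on GRCm38.p6, from 250 bases before to 50 after the start, were found for 79.8% of the measured genes. That is under the 80% needed to compare gene sets, so a comparison of motif shares between genes that rose and fell is void, and a match is a description only. Over all 12566 windows and on both strands, the AP-1 motif TGANTCA was in 6.45%, the NF-kappaB consensus in 10.2%, the interferon-stimulated response element (ISRE) GAAANNGAAA in 3.14% and the HNF1 motif GTTAATNAT in 0.565%. AP-1 is the dimer of FOS and JUN proteins, NF-kappaB answers inflammatory signals, ISRE is bound by interferon regulatory factors, and HNF1 factors serve tubule and liver genes. Capitals mark the match, all stretches are on the plus strand, and the positions are chr3:92364960-92365059 for Sprr2f, chr17:37193792-37193891 for Ubd, chr5:90891144-90891243 for Cxcl1, chr3:95526686-95526785 for Ctss, chr3:142559944-142560043 for Gbp3 and chr11:101367466-101367565 for G6pc. The first match starts 197 bases before the gene's start in Sprr2f, 15 in Ubd, 71 in Cxcl1, 21 in Ctss, 45 in Gbp3 and 221 in G6pc. Cxcl1 and Gbp3 each hold 2 overlapping matches.
Sprr2f, AP-1: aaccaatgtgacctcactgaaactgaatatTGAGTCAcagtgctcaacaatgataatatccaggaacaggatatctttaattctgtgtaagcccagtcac
Ubd, NF-kappaB: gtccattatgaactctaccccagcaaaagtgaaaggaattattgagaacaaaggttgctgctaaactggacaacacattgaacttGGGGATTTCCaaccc
Cxcl1, NF-kappaB: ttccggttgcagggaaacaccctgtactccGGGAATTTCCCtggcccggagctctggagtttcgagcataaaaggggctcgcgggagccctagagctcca
Ctss, ISRE: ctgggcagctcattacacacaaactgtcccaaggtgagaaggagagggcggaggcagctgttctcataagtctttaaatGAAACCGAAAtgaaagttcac
Gbp3, ISRE: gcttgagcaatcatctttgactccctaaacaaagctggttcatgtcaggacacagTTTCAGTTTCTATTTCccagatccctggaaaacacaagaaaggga
G6pc, HNF1: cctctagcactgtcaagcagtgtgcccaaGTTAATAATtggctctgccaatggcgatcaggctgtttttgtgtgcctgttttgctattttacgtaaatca

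Injury genes of the tubule rose nearly throughout. Of 14 measured members 13 rose, with a median of 2.23 against -0.12 over all genes, and the exception was Hbegf at 0.45 ± 0.23 (adjusted p = 0.136), a growth factor that binds the EGF receptor. Clu, the chaperone clusterin, was bright already in sham and read 9441, 7806 and 10031 on the sham arrays and 29560, 29536 and 31310 on the UUO arrays (1.74 ± 0.15, adjusted p = 1.95e-06). Vim, the intermediate filament vimentin of mesenchymal and dedifferentiated cells, read 1073, 1151 and 1374 on the sham arrays and 6881, 6300 and 6963 on the UUO arrays (2.49 ± 0.28, adjusted p = 1.71e-05). Il34, a ligand of the macrophage receptor CSF1R, read 505, 602 and 690.4 on the sham arrays and 1744, 1289 and 1363 on the UUO arrays (1.29 ± 0.26, adjusted p = 0.002). Clu was highest on UUO 3. In none of these 3 genes did the groups overlap, which held for 56.2% of all genes.

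The epithelial keratins and the cytoskeleton rose with them. Of 8 keratin genes 6 rose (median 1.29). Krt20, a keratin of umbrella cells and injured tubule, read 31.7, 29.1 and 36.0 on the sham arrays and 659.6, 475 and 596 on the UUO arrays (4.15 ± 0.26, adjusted p = 6.58e-08), from background to a clear signal. Krt18, a simple epithelial keratin, read 709, 1520 and 1412 on the sham arrays and 5180, 4180 and 3976 on the UUO arrays (1.94 ± 0.31, adjusted p = 0.000414), and its partner Krt8 rose by 0.87 ± 0.16. Of 20 genes of cytoskeleton and annexins 19 rose (median 1.84). Anxa3, a membrane-binding annexin, read 323, 279 and 215 on the sham arrays and 1858, 2081 and 1270 on the UUO arrays (2.66 ± 0.25, adjusted p = 3.11e-06). Tmsb10, which binds actin monomers, read 6264, 7273 and 8159 on the sham arrays and 30646, 30343 and 29701 on the UUO arrays (2.07 ± 0.17, adjusted p = 1.44e-06). The actin genes themselves rose by little, Actb at 0.33 ± 0.09 (adjusted p = 0.0137) and Actg1 at 0.34 ± 0.09 (adjusted p = 0.0114). With suffixed probe sets left out, Tmsb10 was at -0.27 (adjusted p = 0.225). The call ended after median centring for Actb (0.158) and Actg1 (0.127), without UUO 1 for Actb (0.0644) and Actg1 (0.0606) and with averaging for Actb (0.0996) and Actg1 (0.0918), with the adjusted p in parentheses. The probe sets that passed in the same direction were 4 of 5 for Tmsb10 (-0.27 to 2.95).

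Genes of the early proximal tubule, the segment that reclaims most filtered solutes, fell without exception among those measured. All 14 members fell (median -1.27), and the medians on UUO 1, 2 and 3 were -1.54, -1.52 and -0.98. Slc34a1, the sodium-phosphate cotransporter, read 18045, 18640 and 21156 on the sham arrays and 5683, 6535 and 11360 on the UUO arrays (-1.36 ± 0.32, adjusted p = 0.00613). Slc22a8, an organic anion transporter, read 7843, 8575 and 9414 on the sham arrays and 1120, 1054 and 2890 on the UUO arrays (-2.51 ± 0.62, adjusted p = 0.00717). Pdzk1, a scaffold of brush border transporters, read 12048, 11590 and 11249 on the sham arrays and 5262, 5654 and 7085 on the UUO arrays (-0.97 ± 0.23, adjusted p = 0.0056). UUO 3 lay closest to sham for all 3, yet below every sham array. Passing was lost with averaging for Slc34a1 (0.0689), Slc22a8 (0.077) and Pdzk1 (0.0687), with the adjusted p in parentheses. The 14 lower became 6 with averaging. In the late proximal segment 10 of 14 fell and none rose (median -1.24). Slc22a7, an organic anion transporter, read 8688, 9696 and 9376 on the sham arrays and 1005, 1080 and 2823 on the UUO arrays (-2.67 ± 0.58, adjusted p = 0.00347). Cyp2d26, a cytochrome P450, read 7891, 7504 and 7844 on the sham arrays and 833, 839 and 2265 on the UUO arrays (-2.73 ± 0.39, adjusted p = 0.000149). The threshold was missed with averaging for Slc22a7 (0.0522), with the adjusted p in parentheses. The 10 lower became 5 without sham 1, 4 without sham 2 or UUO 1, 6 without UUO 2 and 1 with averaging.

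Peptidases of the brush border fell too. Of 8 measured, 5 fell (median -0.97). Dpep1, a dipeptidase, read 4223, 4274 and 5306 on the sham arrays and 1122, 1294 and 2049 on the UUO arrays (-1.67 ± 0.27, adjusted p = 0.000458). Ace, the angiotensin-converting enzyme, read 789, 889 and 922 on the sham arrays and 362, 324 and 450.4 on the UUO arrays (-1.21 ± 0.21, adjusted p = 0.000732). Mep1b, the beta subunit of meprin, read 3947, 4989 and 3740 on the sham arrays and 970.0, 1131 and 1484 on the UUO arrays (-1.83 ± 0.44, adjusted p = 0.006). The groups were separate in all 3, as they were for 56.2% of all genes. Enpep (-0.01 ± 0.18), Mme (0.35 ± 0.78) and Dpp4 (0.19 ± 0.32), which also encode brush border peptidases, did not pass. The call ended with averaging for Mep1b (0.0683), with the adjusted p in parentheses. The 5 lower became 3 with averaging.

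Beyond the proximal tubule the segments differed from gene to gene. In the thick ascending limb 4 of 10 genes fell (median -0.71). Egf, a growth factor made there and in the distal tubule, read 13666, 14762 and 13206 on the sham arrays and 1156, 1261 and 2951 on the UUO arrays (-3.09 ± 0.59, adjusted p = 0.00154). Umod, the most abundant protein of that segment, was at -0.12 ± 0.18 (adjusted p = 0.623) with overlapping groups. The cotransporter gene Slc12a1, at -1.22 ± 0.51 (adjusted p = 0.0752), did not pass, with 5978, 6865 and 2743 on the sham arrays and 2190, 2071 and 1957 on the UUO arrays. The 4 lower became 2 without UUO 1 or UUO 2 and 1 with averaging.

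In the distal convoluted and connecting tubule 6 of 10 genes fell (median -1.46). Slc12a3, the thiazide-sensitive cotransporter, read 8071, 8677 and 10661 on the sham arrays and 2547, 2508 and 4029 on the UUO arrays (-1.62 ± 0.32, adjusted p = 0.002). The calcium-binding proteins S100g (-2.12 ± 0.34, adjusted p = 0.000391) and Calb1 (-2.23 ± 0.50, adjusted p = 0.0043) fell, and Klk1, tissue kallikrein, read 29598, 27533 and 28620 on the sham arrays and 5137, 5517 and 13875 on the UUO arrays (-1.96 ± 0.34, adjusted p = 0.000769). Signal for Klk1 on UUO 3 was more than 2 times that on UUO 1 or UUO 2 and still under the lowest sham value. The kinase gene Wnk1 (0.36) and the magnesium channel genes Trpm6 (-0.44) and Trpm7 (0.72) did not pass. Passing was lost with averaging for Calb1 (0.056), with the adjusted p in parentheses. Probe sets passing in the same direction numbered 1 of 2 for Calb1 (-2.23 to -0.89).

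In the collecting duct most genes of the acid-base cells fell, while most genes of the water-handling cells did not pass. Of 11 intercalated cell genes 9 fell (median -1.20), and the medians on UUO 1, 2 and 3 were -1.44, -1.44 and -0.71. Slc4a1, the anion exchanger of acid-secreting cells, read 1704, 1938 and 1992 on the sham arrays and 127, 174 and 399.5 on the UUO arrays (-3.18 ± 0.57, adjusted p = 0.000957). Atp6v0a4, a subunit of the proton pump, read 1803, 1658 and 1799 on the sham arrays and 809.5, 788 and 1070 on the UUO arrays (-0.99 ± 0.26, adjusted p = 0.00914). Among 12 principal cell genes 3 fell and 1 rose (median -0.69), and the share that fell was near the 21.6% of all genes. Aqp3, a water channel of the basolateral side, read 2910, 3199 and 3013 on the sham arrays and 698, 770.4 and 1568 on the UUO arrays (-1.69 ± 0.26, adjusted p = 0.00026). Aqp2, the vasopressin-regulated channel, read 2885, 6169 and 4696 on the sham arrays and 1090, 1006 and 1660 on the UUO arrays (-1.84 ± 0.52, adjusted p = 0.0151). Stc1, the hormone stanniocalcin, rose from 125, 143 and 121 to 249, 238 and 253 (0.93 ± 0.17, adjusted p = 0.00131). The epithelial sodium channel subunits Scnn1b (-0.16) and Scnn1g (0.02) did not pass. The threshold was missed with averaging for Atp6v0a4 (0.084) and Aqp2 (0.0929), without sham 2 for Aqp2 (0.0593), without UUO 1 for Aqp2 (0.0557) and without UUO 2 for Aqp2 (0.0629), with the adjusted p in parentheses. By probe set, those in the same direction were 2 of 3 for Slc4a1 (-3.18 to -0.31) and 1 of 2 for Stc1 (-0.21 to 0.93). The 9 lower of the intercalated cell list became 5 with averaging. The 3 lower of the principal cell list became 1 without UUO 1 or UUO 2 or with averaging. In the fit of the 6 arrays alone that count was 5 without the replicate block and 6 with it.

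**Figure D3:**
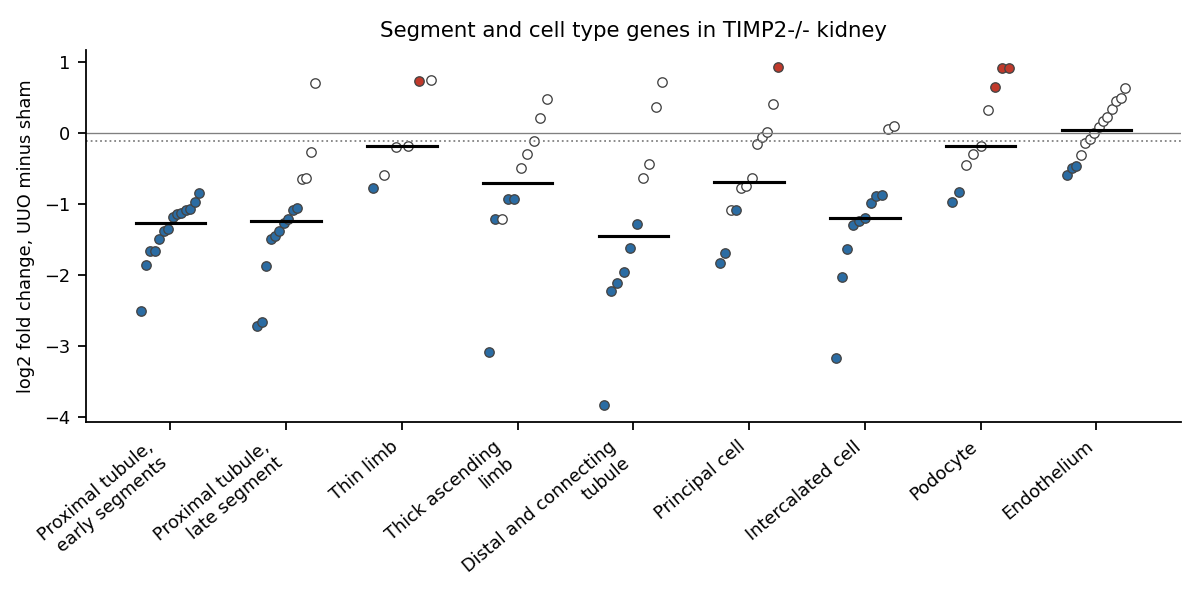
Log2 fold change, UUO minus sham, of each measured gene (points) of 9 lists of nephron segments and kidney cell types in TIMP2-/-; filled points passed (red higher, blue lower), open points did not, black bars are list medians and the dotted line is the median of all genes. All points of the early proximal tubule are filled and below 0, while the endothelial points lie around 0.

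Podocyte genes passed in both directions, and few endothelial genes passed. In both lists the share that fell was near the 21.6% of all genes. Of 9 podocyte genes 3 rose and 2 fell (median -0.18). Nphs1, nephrin of the slit diaphragm, read 385, 369 and 426 on the sham arrays and 207, 179 and 289 on the UUO arrays (-0.83 ± 0.21, adjusted p = 0.00846), and Tcf21, a transcription factor of podocytes and stroma, read 1246, 1675 and 1648 on the sham arrays and 2770, 3038 and 2720 on the UUO arrays (0.91 ± 0.22, adjusted p = 0.00727). Of 14 endothelial genes 3 fell and none rose (median 0.04, whose sign turned to -0.11 under median centring, -0.05 under quantile normalization, -0.09 without sham 1 and -0.03 without UUO 3). Kdr, the main VEGF receptor, read 942, 928 and 956 on the sham arrays and 616, 700.3 and 704 on the UUO arrays (-0.49 ± 0.15, adjusted p = 0.019). The junction gene Cdh5 was at 0.64 ± 0.30 (adjusted p = 0.105) and did not pass. The call ended without UUO 2 for Nphs1 (0.0518), with averaging for Nphs1 (0.079), Tcf21 (0.0652) and Kdr (0.111), without sham 3 for Kdr (0.0568), without UUO 1 for Kdr (0.0843) and with sham 3 and UUO 3 both left out for Kdr (0.0561), with the adjusted p in parentheses. The 3 higher of the podocyte list became 1 without sham 2, UUO 1 or UUO 2 and 0 with averaging. The 3 lower of the endothelium list became 1 without sham 3 and 0 without UUO 1 or with averaging. Adhesion genes of activated vessels and leukocytes rose in 5 of 10 cases (median 0.88). Icam1 read 454, 396 and 516 on the sham arrays and 2065, 1956 and 1886 on the UUO arrays (2.12 ± 0.18, adjusted p = 1.54e-06), and Itgb2, the beta chain of its leukocyte ligands, read 194, 181 and 272 on the sham arrays and 982, 875 and 953 on the UUO arrays (2.14 ± 0.28, adjusted p = 8.29e-05). Sele (-0.17) and Selp (0.50), the selectins of endothelium, did not pass.

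Genes of amino acid breakdown fell in large number. Of 32 genes of amino acid catabolism 26 fell and 1 rose (median -1.22). Hpd, of tyrosine breakdown, read 2462, 3292 and 2022 on the sham arrays and 372, 368 and 773 on the UUO arrays (-2.42 ± 0.61, adjusted p = 0.00822). Hgd (-1.16 ± 0.29, adjusted p = 0.00837) and Fah (-1.12 ± 0.28, adjusted p = 0.00868), later enzymes of the same path, fell too. Arg2, the mitochondrial arginase, was the gene that rose, with 237, 255 and 281 on the sham arrays and 2398, 2284 and 1458 on the UUO arrays (2.96 ± 0.28, adjusted p = 3.36e-06). Passing was lost with averaging for Hpd (0.0891), Hgd (0.0834) and Fah (0.0913), with the adjusted p in parentheses.

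Glucose and fructose handling fell in the same kidneys. Among 9 genes 7 fell and 1 rose (median -1.39). G6pc, glucose-6-phosphatase, whose HNF1 match is printed above, read 8113, 7157 and 7579 on the sham arrays and 1047, 1609 and 3393 on the UUO arrays (-2.09 ± 0.50, adjusted p = 0.00652). Khk, ketohexokinase, read 11962, 10909 and 11074 on the sham arrays and 3570, 3699 and 5369 on the UUO arrays (-1.45 ± 0.34, adjusted p = 0.00523). UUO 3 held about 2 to 3 times the G6pc signal of the other UUO arrays and stayed far below the lowest sham value. In the list of glycolysis and the hypoxia response 3 of 21 were higher and 5 lower (median -0.13), shares near the 15.7% and 21.6% of all genes. Hk2, hexokinase 2, rose from 93.2, 105 and 111 to 365, 267 and 215 (1.42 ± 0.28, adjusted p = 0.00177), and Car9, a carbonic anhydrase induced by low oxygen, fell from 391, 439 and 336 to 109, 103 and 169.6 (-1.64 ± 0.29, adjusted p = 0.000886). The threshold was missed with averaging for G6pc (0.0747) and Khk (0.0644), with the adjusted p in parentheses. The 7 lower of the gluconeogenesis and fructose list became 3 with averaging. The 3 higher of the hypoxia response and glycolysis list became 5 without UUO 3. The 5 lower of the hypoxia response and glycolysis list became 3 without sham 1, sham 2, sham 3, UUO 1, UUO 2 or both replicate 3 arrays or with averaging.

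Mitochondrial and peroxisomal genes fell by smaller amounts. In the peroxisome list 18 of 26 fell (median -0.75), in mitochondrial fatty acid oxidation 11 of 19 (median -0.53), in the tricarboxylic acid cycle 12 of 22 (median -0.38) and in the respiratory chain 16 of 27 (median -0.38). No member of the 4 lists rose. Acox3, a peroxisomal acyl-CoA oxidase, read 1126, 945 and 1280 on the sham arrays and 277, 305 and 453 on the UUO arrays (-1.72 ± 0.27, adjusted p = 0.000359). Acaa2, the thiolase of mitochondrial beta-oxidation, read 6427, 6644 and 7466 on the sham arrays and 2543, 2276 and 3235 on the UUO arrays (-1.36 ± 0.21, adjusted p = 0.000361). Ogdh, of the tricarboxylic acid cycle, read 6104, 6712 and 7136 on the sham arrays and 3147, 2929 and 3754 on the UUO arrays (-1.03 ± 0.18, adjusted p = 0.000885). Cyc1, cytochrome c1 of complex III, read 13173, 13015 and 14720 on the sham arrays and 7617, 6865 and 9203 on the UUO arrays (-0.80 ± 0.20, adjusted p = 0.00883). Ogdh and Cyc1 kept more of their signal after UUO than Acox3 and Acaa2. The groups of each gene were separate, as they were for 56.2% of all genes. The call ended with averaging for Cyc1 (0.0758), with the adjusted p in parentheses. The 18 lower of the peroxisome list became 3 with averaging. The 11 lower of the mitochondrial fatty acid oxidation list became 2 with averaging. The 12 lower of the tricarboxylic acid cycle list became 6 without UUO 2 and 2 with averaging. The 16 lower of the respiratory chain list became 9 without sham 2, 10 without sham 3, 6 without UUO 1 or UUO 2 and 0 with averaging.

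More genes fell than rose among transcription factors of the tubule and among detoxifying enzymes. Of 22 nuclear receptors and tubular factors 10 fell and 4 rose (median -0.36). Klf15, a factor of amino acid and glucose metabolism, read 1920, 1706 and 1733 on the sham arrays and 377, 512 and 813 on the UUO arrays (-1.73 ± 0.33, adjusted p = 0.0015), and Hnf4a, a factor of proximal tubule identity, read 10982, 10716 and 11486 on the sham arrays and 5663, 5355 and 7314 on the UUO arrays (-0.87 ± 0.20, adjusted p = 0.0056). Cebpd, induced in the acute phase, read 395, 296 and 389 on the sham arrays and 1723, 1220 and 1099 on the UUO arrays (1.89 ± 0.32, adjusted p = 0.000582), and its relative Cebpb rose by 1.08 ± 0.21. Passing was lost with averaging for Hnf4a (0.0646), with the adjusted p in parentheses. The probe sets that passed in the same direction were 1 of 2 for Cebpd (0.03 to 1.89). The 4 higher became 2 without UUO 1 or with averaging. The 10 lower became 6 without sham 1, sham 2, sham 3 or UUO 2, 5 without UUO 1 and 4 with averaging. Cytochrome P450 genes fell in 12 of 19 cases and rose in 3 (median -0.83). Cyp2e1 was bright and read 26557, 26810 and 26499 on the sham arrays and 15297, 13909 and 19556 on the UUO arrays (-0.73 ± 0.16, adjusted p = 0.0041), and Cyp1b1, a P450 of stromal cells, rose from 207, 201 and 131 to 779, 876 and 655 (2.12 ± 0.35, adjusted p = 0.000518). The threshold was missed with averaging for Cyp2e1 (0.059), with the adjusted p in parentheses. Probe sets passing in the same direction numbered 2 of 3 for Cyp1b1 (-0.36 to 2.12). The 12 lower became 5 with averaging.

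Antioxidant genes did not rise as a group. In the list of NRF2 targets and antioxidants 2 of 19 rose and 6 fell (median -0.17). Nfe2l2, which encodes NRF2 itself, rose from 1600, 1403 and 1140 to 2746, 2691 and 2038 (0.85 ± 0.18, adjusted p = 0.00346). Its classical targets Nqo1 (-0.72 ± 0.27, adjusted p = 0.0501) and Hmox1 (0.55 ± 0.30, adjusted p = 0.168) did not pass. Of 28 glutathione and phase II genes 8 fell and none rose (median -0.35), led by Gpx6, a glutathione peroxidase, with 2194, 2345 and 2260 on the sham arrays and 362, 284 and 418 on the UUO arrays (-2.69 ± 0.54, adjusted p = 0.0022). In cholesterol synthesis 6 of 18 fell and 1 rose (median -0.36). Mvd, mevalonate decarboxylase, read 1246, 1241 and 1271 on the sham arrays and 424, 466 and 676 on the UUO arrays (-1.29 ± 0.24, adjusted p = 0.0012), and Cyp51, lanosterol demethylase, fell as well (-1.06 ± 0.20, adjusted p = 0.00146). By probe set, those in the same direction were 2 of 3 for Cyp51 (-1.19 to -0.53). The 6 lower of the NRF2 targets and antioxidants list became 3 without sham 1 or UUO 1, 2 without UUO 2 and 1 with averaging. The 8 lower of the glutathione and phase II list became 5 without sham 2 or UUO 2, 3 without UUO 1, 2 with averaging and 14 after median centring. Fitted on the 6 arrays alone, it was 12 without and 14 with the replicate block.

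Matrix genes and the genes of the cells that make matrix rose. Of 18 fibrillar and microfibrillar genes 15 rose (median 2.35), and of 15 fibroblast genes 13 (median 2.27). Col3a1, the chain of type III collagen, read 942, 914 and 870.3 on the sham arrays and 15565, 17467 and 18000 on the UUO arrays (4.22 ± 0.22, adjusted p = 2.12e-08). Col1a1 and Col1a2, the chains of type I collagen, read 204, 227 and 241 on the sham arrays and 3130, 4141 and 5446 on the UUO arrays (4.21 ± 0.38, adjusted p = 2.37e-06), and 2337, 3335 and 3272 on the sham arrays and 18619, 20649 and 23485 on the UUO arrays (2.82 ± 0.22, adjusted p = 7.35e-07). All 3 collagen genes were highest on UUO 3, the array with the smallest median change. Sparc, a collagen-binding matricellular protein, read 2918, 3135 and 3672 on the sham arrays and 14345, 14470 and 16656 on the UUO arrays (2.23 ± 0.22, adjusted p = 5.78e-06), and Bgn, the proteoglycan biglycan, read 3435, 3801 and 3895 on the sham arrays and 12377, 12564 and 12683 on the UUO arrays (1.76 ± 0.14, adjusted p = 9.21e-07). S100a4, a calcium-binding protein of fibroblasts and leukocytes, read 174, 127 and 167 on the sham arrays and 698, 734 and 805 on the UUO arrays (2.27 ± 0.35, adjusted p = 0.000291), and Dcn, the proteoglycan decorin, rose by 2.22 ± 0.44. Gli1 (0.01 ± 0.20, adjusted p = 0.962) and Postn (2.31 ± 0.97, adjusted p = 0.0762) were the fibroblast genes that did not pass. The 13 higher of the fibroblast list became 8 without sham 1, sham 2, sham 3 or UUO 2 or with averaging.

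Basement membrane genes split by chain. Of 20 measured 10 rose and 3 fell (median 0.65). Col4a1 and Col4a2, the chains of all basement membranes, read 3183, 3301 and 3021 on the sham arrays and 12488, 13304 and 12502 on the UUO arrays (2.01 ± 0.12, adjusted p = 5.43e-08), and 2116, 2302 and 2548 on the sham arrays and 7012, 7532 and 7421 on the UUO arrays (1.66 ± 0.13, adjusted p = 9.43e-07). Col4a4, a chain of the glomerular membrane, read 943, 722 and 789.8 on the sham arrays and 342, 386 and 354 on the UUO arrays (-1.17 ± 0.33, adjusted p = 0.015). Nid1, the linker nidogen, read 708, 629 and 594 on the sham arrays and 2845, 3016 and 2546 on the UUO arrays (2.12 ± 0.21, adjusted p = 7.06e-06). Both chains shared by all membranes stood far above sham on each UUO array, while Col4a4 went the other way. In collagen processing 7 of 16 genes rose and none fell (median 0.67), with the cross-linking enzyme Loxl1 at 441, 504 and 555 on the sham arrays and 1966, 1897 and 2142 on the UUO arrays (2.01 ± 0.26, adjusted p = 7.42e-05) and the collagen chaperone Serpinh1 at 1853, 1921 and 2416 on the sham arrays and 6216, 5898 and 6925 on the UUO arrays (1.63 ± 0.24, adjusted p = 0.000209). The prolyl hydroxylase genes P4ha1 (0.14) and P4ha2 (0.29) did not pass. The call ended without UUO 1 for Col4a4 (0.0533), with sham 3 and UUO 3 both left out for Col4a4 (0.0569) and with averaging for Col4a4 (0.0917), with the adjusted p in parentheses. The 10 higher of the basement membrane list became 6 with averaging. The 3 lower of the basement membrane list became 1 without UUO 1 or both replicate 3 arrays and 0 with averaging. The 7 higher of the collagen processing list became 3 with averaging.

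Smooth muscle and pericyte genes rose in 6 of 12 cases (median 0.77). Tagln, an actin-binding protein of contractile cells, read 971, 1307 and 1398 on the sham arrays and 5569, 5918 and 7344 on the UUO arrays (2.36 ± 0.26, adjusted p = 1.45e-05), and Pdgfrb, the PDGF receptor of pericytes, read 1964, 2073 and 2678 on the sham arrays and 6746, 6937 and 6402 on the UUO arrays (1.59 ± 0.21, adjusted p = 7.23e-05). Myh11, the smooth muscle myosin of vessels, was at -0.34 ± 0.49 (adjusted p = 0.604) and Cnn1, calponin, at 0.04 ± 0.73 (adjusted p = 0.969), and neither passed. The 6 higher became 3 with averaging. Among 12 regulators and markers of epithelial-mesenchymal change 4 rose (median 0.49), Vim among them, while the transcription factors Snai1 (-0.10 ± 0.27) and Twist1 (0.83 ± 0.34) and the cadherins Cdh1 (0.29 ± 0.15) and Cdh2 (0.41 ± 0.33) did not pass. The 4 higher became 2 with averaging. In the fit of the 6 arrays alone that count was 6 without the replicate block and 7 with it.

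The proteases on which TIMP2 acts were measured in the same arrays. Mmp2, whose activation uses TIMP2, read 198, 199.6 and 241 on the sham arrays and 1300, 1354 and 1443 on the UUO arrays (2.68 ± 0.37, adjusted p = 0.00011). Mmp14, which cleaves the MMP2 proform, read 362, 371 and 421 on the sham arrays and 2242, 2368 and 2370 on the UUO arrays (2.60 ± 0.40, adjusted p = 0.000276). The UUO arrays lay close together for both genes and far above sham. The gelatinase gene Mmp9 was at 0.23 ± 0.83 (adjusted p = 0.845) and did not pass. In the list of MMP2 activation and gelatinases 2 of 4 measured genes rose and 1 fell (median 1.41). The gene that fell was Mmp16, at -0.45 with overlapping groups. Its call ended without sham 2, sham 3, UUO 1 or UUO 2, with both replicate 3 arrays left out and with averaging. Of 21 other matrix proteases 12 rose and 1 fell (median 1.25). Adamts1, which cleaves proteoglycans, read 239.7, 265 and 172 on the sham arrays and 2175, 2053 and 986 on the UUO arrays (2.89 ± 0.35, adjusted p = 4.15e-05), with UUO 3 well below the other UUO arrays.

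Among the inhibitors of these proteases the TIMP genes diverged. Timp1 read 99.5, 73.9 and 121 on the sham arrays and 2679, 2518 and 3597 on the UUO arrays (4.91 ± 0.52, adjusted p = 1.13e-05), and it was highest on UUO 3. Timp3, the inhibitor bound to matrix, was at -0.09 ± 0.21 (adjusted p = 0.75) with its brightest probe set, while 2 of its 4 probe sets fell, the lowest at -1.12. Timp4 was at -0.21 ± 0.13 (adjusted p = 0.224). Reck, a membrane-anchored inhibitor of metalloproteinases, read 321, 385 and 344 on the sham arrays and 458, 502 and 466 on the UUO arrays (0.45 ± 0.16, adjusted p = 0.0454). The call for Reck ended without any 1 of the 6 arrays (adjusted p from 0.0535 to 0.141), after median centring (0.155), with averaging (0.165), with both replicate 3 arrays left out (0.122) and with the replicate block (0.0558), so it rests on every array. Of the plasminogen system Plat, tissue plasminogen activator, read 1302, 1431 and 1571 on the sham arrays and 4114, 4127 and 3594 on the UUO arrays (1.46 ± 0.13, adjusted p = 2.24e-06), and Serpinf2, the inhibitor of plasmin, read 7454, 7655 and 7962 on the sham arrays and 2965, 2986 and 4154 on the UUO arrays (-1.21 ± 0.29, adjusted p = 0.00623). Plau, urokinase, was at 0.30 ± 0.24 (adjusted p = 0.328). Of the 6 members measured 2 rose and 1 fell (median 0.19). Passing was lost with averaging for Serpinf2 (0.0682), with the adjusted p in parentheses.

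In the TGF-beta family many ligands, receptors and binding proteins rose and Bmp7 fell. Of 17 ligands and receptors 9 rose and 1 fell (median 0.62). Bmp7, a ligand that opposes TGF-beta in the tubule, read 777, 783 and 863 on the sham arrays and 206, 209.6 and 352 on the UUO arrays (-1.70 ± 0.28, adjusted p = 0.000485). Ltbp2, a latent TGF-beta binding protein of microfibrils, read 56.5, 62.6 and 64.7 on the sham arrays and 301, 305 and 503 on the UUO arrays (2.55 ± 0.58, adjusted p = 0.0044), with UUO 3 highest. Of 15 targets and SMAD genes 9 rose and none fell (median 0.64). Tgfbi, a matrix protein named for its induction by TGF-beta, read 545, 539 and 714 on the sham arrays and 2718, 2621 and 2531 on the UUO arrays (2.14 ± 0.35, adjusted p = 0.000543), and Smad4, the common partner of the receptor SMADs, read 1439, 1613 and 1336 on the sham arrays and 2447, 2508 and 1925 on the UUO arrays (0.64 ± 0.15, adjusted p = 0.00465). The inhibitory Smad7 (-0.14 ± 0.12) and the signalling Smad3 (-0.45 ± 0.20, adjusted p = 0.0926) did not pass. The threshold was missed with averaging for Smad4 (0.0505), with the adjusted p in parentheses. The 9 higher of the TGF-beta ligands and receptors list became 3 with averaging. Fitted on the 6 arrays alone, it was 13 without and 14 with the replicate block. The 9 higher of the TGF-beta targets and SMADs list became 5 without UUO 1 or UUO 2 and 3 with averaging.

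Other growth factor families moved in few members. Among 10 ligands and receptors of the EGF family 2 fell, near the 21.6% share of all genes, and none rose (median -0.17). Egf fell the most. In the Wnt and Notch list 5 of 20 rose and 1 fell (median 0.30). Dkk3, a secreted protein of the Dickkopf family, read 241, 244 and 230.3 on the sham arrays and 439.9, 594 and 489 on the UUO arrays (1.08 ± 0.15, adjusted p = 0.000109), and Wnt11, a ligand of the ureteric bud tip, read 159, 191 and 241 on the sham arrays and 126, 109 and 130.4 on the UUO arrays (-0.68 ± 0.14, adjusted p = 0.0031). Axin2 (-0.07) and Lef1 (-0.45), common readouts of canonical Wnt signalling, did not pass. The 5 higher of the Wnt and Notch list became 3 without sham 2 or both replicate 3 arrays or after median centring and 1 without sham 3, UUO 1 or UUO 2 or with averaging. In the fit of the 6 arrays alone that count was 9 without the replicate block and 9 with it.

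Macrophage genes rose about as far on every UUO array. Of 25 measured 19 rose and none fell (median 2.60), and the medians on UUO 1, 2 and 3 were 2.61, 2.51 and 2.38. The summed intensity of the list was 11274, 11078 and 13270 on the sham arrays and 61878, 62056 and 61161 on the UUO arrays. Lyz2, lysozyme, read 1003, 798 and 961 on the sham arrays and 11098, 11760 and 11250 on the UUO arrays (3.63 ± 0.24, adjusted p = 1.28e-07). C1qa, a chain of complement C1q made by macrophages, read 876, 863 and 1199 on the sham arrays and 6069, 5467 and 6535 on the UUO arrays (2.63 ± 0.23, adjusted p = 1.95e-06). Ctss, the cathepsin of antigen-presenting cells whose ISRE match is printed above, read 867, 604 and 571 on the sham arrays and 7656, 7278 and 5974 on the UUO arrays (3.37 ± 0.23, adjusted p = 1.58e-07). Csf1r, the receptor of the lineage, was already bright in sham and rose less, with 3565, 4024 and 4572 on the sham arrays and 7106, 7765 and 7872 on the UUO arrays (0.91 ± 0.18, adjusted p = 0.0022). Nos2 (-0.27 ± 0.19), Arg1 (0.95 ± 1.22) and Chil3 (0.74 ± 0.47), used as markers of macrophage activation states, did not pass.

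Other leukocytes left weaker traces. Of 14 lymphocyte genes 6 rose and 2 fell (median 0.46). Cd3d, of the T cell receptor complex, read 126, 116 and 114 on the sham arrays and 217, 211 and 261 on the UUO arrays (0.95 ± 0.23, adjusted p = 0.00606), and Gzma, a granzyme of cytotoxic cells, read 84.3, 67.7 and 86.5 on the sham arrays and 145, 183 and 186 on the UUO arrays (1.11 ± 0.21, adjusted p = 0.00173). Of 10 dendritic and mast cell genes 3 rose and 1 fell, with Cd209a, a lectin of monocyte-derived dendritic cells, at 97.8, 122 and 101 on the sham arrays and 342, 399.5 and 422 on the UUO arrays (1.86 ± 0.22, adjusted p = 2.4e-05) and the maturation marker Cd83 at 174, 164 and 258 on the sham arrays and 699, 819 and 750.0 on the UUO arrays (1.96 ± 0.20, adjusted p = 9.43e-06). Of 9 neutrophil genes 6 had mean intensities under 100 in both groups, so the list says little: none rose and 2 fell (median -0.40, and 1.34 with the dim genes left out). S100a8 (1.71 ± 0.87, adjusted p = 0.133) and S100a9 (1.34 ± 0.83, adjusted p = 0.214), the calprotectin subunits, read 44.2, 37.9 and 40.3 on the sham arrays and 86.0, 178 and 154 on the UUO arrays, and 70.8, 50.2 and 56.6 on the sham arrays and 93.6, 184 and 190.1 on the UUO arrays, and did not pass. The 6 higher of the T, NK and B cell list became 3 without sham 1, sham 3 or both replicate 3 arrays or with the replicate block and 2 without sham 2, UUO 1 or UUO 2 or with averaging.

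Most chemokines rose, while 3 classical inflammatory cytokines did not pass. Of 27 chemokines 16 rose and 1 fell (median 1.26), and of 19 cytokines 7 rose and 2 fell (median 0.32). Cxcl1, a neutrophil attractant whose NF-kappaB matches are printed above, read 99.7, 67.0 and 78.7 on the sham arrays and 1115, 1494 and 989 on the UUO arrays (3.87 ± 0.30, adjusted p = 7.35e-07). Ccl6, a chemokine of myeloid cells, read 254, 187 and 247 on the sham arrays and 1889, 1718 and 1793 on the UUO arrays (2.98 ± 0.43, adjusted p = 0.000162), and Cxcl16, a membrane-bound chemokine, read 1053, 1066 and 1258 on the sham arrays and 2799, 2601 and 2671 on the UUO arrays (1.26 ± 0.18, adjusted p = 0.000148). Il33, an alarmin of stromal and epithelial nuclei, read 224, 177 and 172 on the sham arrays and 1007, 1222 and 877 on the UUO arrays (2.44 ± 0.42, adjusted p = 0.00077). Il1b (0.80 ± 0.44, adjusted p = 0.161), Il6 (0.32 ± 1.10, adjusted p = 0.835) and Tnf (-0.08 ± 0.12, adjusted p = 0.628), the classical cytokines of inflammation, did not pass. The 7 higher of the cytokines list became 3 with averaging.

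Genes of NF-kappaB regulation and of the interferon response rose. Of 15 NF-kappaB subunits and inhibitors 12 rose and none fell (median 0.87). Nfkbia, which holds NF-kappaB in the cytoplasm, read 3185, 4043 and 3813 on the sham arrays and 8327, 8321 and 6525 on the UUO arrays (1.07 ± 0.15, adjusted p = 0.000133), and Nfkbiz, a nuclear co-regulator, read 31.7, 20.0 and 17.0 on the sham arrays and 493, 553 and 244 on the UUO arrays (4.20 ± 0.50, adjusted p = 2.88e-05) with sham at background. Tnfaip3 (-0.08 ± 0.12, adjusted p = 0.615), another feedback inhibitor, did not pass. Of 20 interferon-induced genes 18 rose (median 1.22). Gbp2 and Gbp3, guanylate-binding proteins induced by interferon gamma, read 417, 374 and 386 on the sham arrays and 3808, 3868 and 2531 on the UUO arrays (3.09 ± 0.22, adjusted p = 3.48e-07), and 53.9, 54.1 and 39.3 on the sham arrays and 659, 660.4 and 242 on the UUO arrays (3.28 ± 0.46, adjusted p = 0.000128). The Gbp3 stretch printed above holds overlapping ISRE letters on the reverse strand. Irf1, a transcription factor of the pathway, read 732, 787 and 1030 on the sham arrays and 2230, 1816 and 1729 on the UUO arrays (1.19 ± 0.20, adjusted p = 0.000581). UUO 3 was the lowest UUO array for all 3 of these genes. The probe sets that passed in the same direction were 1 of 2 for Nfkbiz (0.78 to 4.20).

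Antigen presentation rose throughout. All 12 measured genes of MHC class I and the immunoproteasome rose (median 1.08), and this count was 12 without each of the 6 arrays in turn. B2m, the light chain of class I, read 9678, 9120 and 10865 on the sham arrays and 21550, 21217 and 18642 on the UUO arrays (1.05 ± 0.11, adjusted p = 1.37e-05). H2-K1, a heavy chain, read 8695, 9541 and 11264 on the sham arrays and 20608, 20561 and 20764 on the UUO arrays (1.08 ± 0.14, adjusted p = 5.24e-05). Psmb8, an immunoproteasome subunit, read 627, 569.8 and 769 on the sham arrays and 2700, 2554 and 2513 on the UUO arrays (1.99 ± 0.22, adjusted p = 1.28e-05). All 9 class II genes rose as well (median 2.00). H2-Aa, an alpha chain, read 5138, 4888 and 6278 on the sham arrays and 19127, 18913 and 18051 on the UUO arrays (1.79 ± 0.15, adjusted p = 1.58e-06), and H2-Eb1, a beta chain, read 3104, 2886 and 3775 on the sham arrays and 13809, 12791 and 12565 on the UUO arrays (2.01 ± 0.17, adjusted p = 1.67e-06). These genes were bright before obstruction, and no UUO array reached down to a sham value.

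Complement and acute phase genes rose together with them. Of 15 complement genes 8 rose and none fell (median 1.59), led by Cfi, complement factor I, with 306, 264 and 331 on the sham arrays and 2644, 2889 and 2313 on the UUO arrays (3.12 ± 0.25, adjusted p = 7.35e-07), and including Serping1, the C1 inhibitor, with 2389, 3489 and 3522 on the sham arrays and 9506, 9519 and 8913 on the UUO arrays (1.59 ± 0.19, adjusted p = 3.12e-05). Of 21 acute phase and coagulation genes 13 rose and 1 fell (median 1.64). The fibrinogen chains Fgg and Fga read 307, 209 and 187 on the sham arrays and 4604, 4270 and 2801 on the UUO arrays (4.06 ± 0.59, adjusted p = 0.000184), and 566, 480.3 and 412 on the sham arrays and 3466, 3007 and 2114 on the UUO arrays (2.54 ± 0.48, adjusted p = 0.00139). F5, coagulation factor V, was the member that fell, with 222, 146 and 190.5 on the sham arrays and 69.0, 65.4 and 68.7 on the UUO arrays (-1.44 ± 0.32, adjusted p = 0.00389). Stat3, the factor behind the acute phase response, read 1210, 1250 and 1636 on the sham arrays and 2976, 2699 and 2619 on the UUO arrays (1.03 ± 0.20, adjusted p = 0.00174). Saa1 (0.69 ± 1.33) and Saa3 (1.64 ± 0.80, adjusted p = 0.118), serum amyloid A genes, did not pass. Probe sets passing in the same direction numbered 2 of 3 for Stat3 (-0.16 to 1.08).

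**Figure D4:**
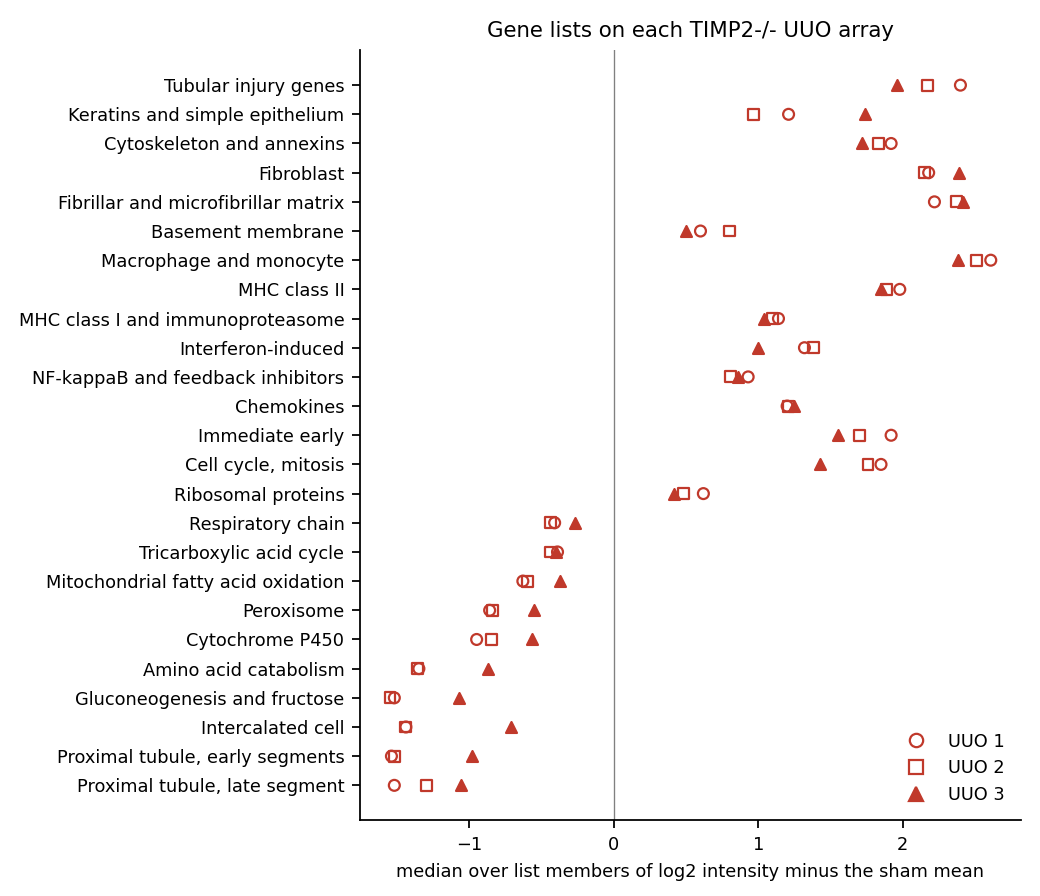
Median over the members of 25 gene lists (rows) of log2 intensity minus the mean of the 3 sham arrays, for UUO 1 (circle), UUO 2 (square) and UUO 3 (filled triangle) of TIMP2-/-. Every list lies on the same side of 0 on all 3 arrays. UUO 3 lies closest to 0 for the metabolic and tubular lists shown except the tricarboxylic acid cycle. It lies beyond the other arrays for keratins, fibroblast genes and fibrillar matrix, and by little for chemokines.

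Immediate early and cell cycle genes rose. Of 17 immediate early genes 12 rose and none fell (median 1.74). Jun, a partner in AP-1, read 553, 541 and 552 on the sham arrays and 2427, 2037 and 1648 on the UUO arrays (1.87 ± 0.21, adjusted p = 2.03e-05), and Egr2, a zinc finger factor, read 20.2, 24.1 and 26.9 on the sham arrays and 288, 241 and 161 on the UUO arrays (3.24 ± 0.34, adjusted p = 9.03e-06) from background in sham. The AP-1 members Fosb (-0.06 ± 0.17) and Jund (0.27 ± 0.15) did not pass. Of 17 replication genes 9 rose and 1 fell (median 0.87), and of 17 mitosis genes 15 rose (median 1.68). Rrm2, the subunit of ribonucleotide reductase made in S phase, read 132, 117 and 182 on the sham arrays and 748, 707 and 494 on the UUO arrays (2.18 ± 0.23, adjusted p = 9.51e-06). Birc5, survivin, read 39.3, 38.1 and 73.9 on the sham arrays and 453, 452 and 395 on the UUO arrays (3.17 ± 0.34, adjusted p = 1.1e-05), and Cdk1, the mitotic kinase, read 110.4, 163 and 128 on the sham arrays and 621, 674 and 628 on the UUO arrays (2.28 ± 0.26, adjusted p = 2.39e-05). Ccnd1 (-0.35 ± 0.18, adjusted p = 0.145) and E2f1 (-0.32 ± 0.14, adjusted p = 0.0887), which act before S phase, did not pass.

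Genes of growth arrest and cell death moved in part. Of 18 inhibitors and p53 targets 10 rose and 1 fell (median 0.57), with Gadd45a, a stress sensor, at 667, 777 and 424 on the sham arrays and 1749, 1527 and 1311 on the UUO arrays (1.33 ± 0.25, adjusted p = 0.00141). Of 18 apoptosis genes 7 rose and 1 fell (median 0.44). Mcl1, which protects cells, read 1720, 1784 and 1656 on the sham arrays and 4268, 4238 and 2861 on the UUO arrays (1.12 ± 0.21, adjusted p = 0.00136). Apaf1, the scaffold of the apoptosome, read 64.0, 64.7 and 70.2 on the sham arrays and 217, 245 and 142 on the UUO arrays (1.57 ± 0.32, adjusted p = 0.00231), and Bid, a pro-death BH3 protein, read 2091, 1931 and 1974 on the sham arrays and 1126, 1172 and 1351 on the UUO arrays (-0.72 ± 0.16, adjusted p = 0.0038). UUO 3 lay closest to sham for all 3 genes. The call ended with averaging for Bid (0.0518), with the adjusted p in parentheses. By probe set, those in the same direction were 1 of 2 for Apaf1 (0.34 to 1.57). The 10 higher of the cell cycle inhibitors and p53 targets list became 6 without sham 3 or both replicate 3 arrays or after median centring, 5 without UUO 2 and 4 with averaging. The 7 higher of the apoptosis list became 4 without sham 2 or UUO 1 or after median centring and 2 with averaging. Fitted on the 6 arrays alone, it was 10 without and 11 with the replicate block.

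Few genes of protein folding stress passed. Of 20 endoplasmic reticulum genes 3 rose, near the 15.7% share of all genes, and 1 fell (median 0.39). Asns, asparagine synthetase of the amino acid response, read 304, 362 and 398 on the sham arrays and 1197, 1007 and 967 on the UUO arrays (1.58 ± 0.19, adjusted p = 3.41e-05), while Herpud1, of the degradation arm, read 6498, 6367 and 7010 on the sham arrays and 3187, 3289 and 4407 on the UUO arrays (-0.88 ± 0.15, adjusted p = 0.000782). Ddit3 (0.27 ± 0.13) and Xbp1 (0.11 ± 0.15), central factors of the response, did not pass. In the heat shock and proteasome list 7 of 19 rose and 1 fell (median 0.26), and Hspb1, a small heat shock protein, read 1263, 2349 and 2463 on the sham arrays and 13530, 10576 and 11922 on the UUO arrays (2.62 ± 0.23, adjusted p = 2.24e-06). The inducible Hspa1a (-0.60 ± 0.29) did not pass. The 3 higher of the endoplasmic reticulum stress list became 5 without UUO 3 or with the replicate block. In the fit of the 6 arrays alone that count was 5 without the replicate block and 11 with it. The 7 higher of the heat shock and proteasome list became 4 with averaging.

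Lysosomal and ribosomal protein genes were higher in part. Of 18 lysosomal genes 8 rose and 1 fell (median 0.29). Ctsd, cathepsin D, read 7786, 7618 and 9110 on the sham arrays and 15903, 14436 and 13168 on the UUO arrays (0.83 ± 0.14, adjusted p = 0.000756), and Glb1, beta-galactosidase, read 3952, 3902 and 3937 on the sham arrays and 1970, 2069 and 2336 on the UUO arrays (-0.89 ± 0.16, adjusted p = 0.00103). Of 16 ribosomal protein genes 9 rose and none fell (median 0.53). Rps18 read 9862, 10713 and 10288 on the sham arrays and 17363, 17326 and 17841 on the UUO arrays (0.77 ± 0.11, adjusted p = 0.000144), from a suffixed probe set that may match other transcripts. In ribosome biogenesis 3 of 19 rose, near the 15.7% share of all genes, and 1 fell (median 0.17). With suffixed probe sets left out, Rps18 was at -0.10 (adjusted p = 0.554). The probe sets that passed in the same direction were 3 of 6 for Rps18 (-0.30 to 0.92). For Rps18, Rps24 and Rps4x, each counted as higher by its brightest probe set, 1 other probe set passed as lower. The 8 higher of the lysosome and cathepsins list became 5 without UUO 2 or both replicate 3 arrays and 4 with averaging or after median centring. The 3 higher of the ribosome biogenesis list became 1 without sham 1 or sham 2 or after median centring and 0 without sham 3, UUO 1 or UUO 2 or with averaging. Fitted on the 6 arrays alone, it was 5 without and 7 with the replicate block.

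Hormonal and vasoactive genes of the kidney changed singly. Kl, which encodes Klotho, the co-receptor for FGF23, read 7601, 7479 and 6820 on the sham arrays and 1816, 2223 and 2916 on the UUO arrays (-1.68 ± 0.31, adjusted p = 0.00131). In its list of Klotho, vitamin D and calcium 4 of 13 fell and none rose (median -0.46). Edn1, the vasoconstrictor endothelin 1, read 132, 113 and 126 on the sham arrays and 487, 455 and 245 on the UUO arrays (1.62 ± 0.28, adjusted p = 0.000818), and was the one member of the renin-angiotensin and vasoactive list that rose, with 3 of 11 lower. Agt, angiotensinogen, was at 0.25 ± 0.24 (adjusted p = 0.43). Of 16 prostaglandin genes 4 rose and 4 fell. Pla2g4a, the phospholipase that frees arachidonic acid, read 95.3, 114 and 60.5 on the sham arrays and 464, 463 and 206 on the UUO arrays (2.02 ± 0.39, adjusted p = 0.00179), while Ptgs2, cyclooxygenase 2, was at 0.23 ± 0.84 (adjusted p = 0.845). The 4 lower of the Klotho, vitamin D and calcium list became 2 with averaging. In the fit of the 6 arrays alone that count was 6 without the replicate block and 7 with it. The 3 lower of the renin-angiotensin and vasoactive list became 1 without UUO 2 or with averaging. The 4 higher of the prostaglandin synthesis and receptors list became 2 without sham 3, UUO 2 or both replicate 3 arrays or with averaging. The 4 lower of the prostaglandin synthesis and receptors list became 2 without sham 3 or both replicate 3 arrays, 1 without UUO 2 and 0 with averaging.

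Among the claudins, which set the permeability of tight junctions, 6 of 21 claudin and junction genes rose and none fell (median 0.29). Cldn1 read 150.3, 118 and 62.4 on the sham arrays and 752, 911 and 337 on the UUO arrays (2.57 ± 0.46, adjusted p = 0.00101). Cldn4 read 878, 1415 and 1454 on the sham arrays and 4989, 3721 and 2899 on the UUO arrays (1.63 ± 0.28, adjusted p = 0.000689), and Cldn3 rose by 1.02 ± 0.23. UUO 3 had the lowest UUO value for Cldn1 and Cldn4. The proximal Cldn2 (-0.21 ± 0.15) and the loop gene Cldn16 (0.21 ± 0.32) did not pass. Probe sets passing in the same direction numbered 2 of 4 for Cldn1 (0.01 to 2.57). The 6 higher became 3 with averaging.

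Tissue that a kidney sample can carry along was looked for by its markers. Urothelial uroplakins did not rise (Upk1a -0.29, Upk2 -0.30, Upk3a -0.08 and Upk3b -0.53), while Krt20, Sprr2f and Sprr1a of the same list did. Sprr1a read 224, 585 and 583 on the sham arrays and 2794, 2368 and 3330 on the UUO arrays (2.73 ± 0.43, adjusted p = 0.000381). In the adipocyte list 1 of 8 passed (median 1.19), and its summed intensity was 11021, 12302 and 7564 in sham and 15542, 17844 and 17328 after UUO. Its part in the other results was not tested. Of 15 hepatocyte genes 1 fell and none rose (median -0.43), and 7 had mean intensities under 100 in both groups. Alb read 507, 494 and 471 on the sham arrays and 133, 933 and 198 on the UUO arrays, with UUO 2 above the other UUO arrays. In the red cell list Alas2, the heme synthesis enzyme of erythroid cells, read 529, 566 and 942 on the sham arrays and 93.3, 136 and 113 on the UUO arrays (-2.54 ± 0.28, adjusted p = 1.71e-05), and 3 of 4 fell. The adrenal list had 5 of 8 lower (median -0.44). The skeletal muscle list had 3 of 11 lower (median -0.33), a share near the 21.6% of all genes. Mean intensities were under 100 in both groups for 5 of the 8 adrenal and 7 of the 11 muscle genes, so these lists say little. Summed intensities of adrenal genes were 5197, 4654 and 4002 in sham and 3210, 3449 and 3686 after UUO. Those of muscle genes were 960.0, 930.0 and 1002 in sham and 683, 785 and 882 after UUO. The 5 lower of the adrenal cortex list became 3 without sham 1 or sham 2, 1 without sham 3 or UUO 1 and 0 without UUO 2 or with averaging. Fitted on the 6 arrays alone, it was 3 without and 7 with the replicate block. The 3 lower of the skeletal muscle list became 7 without UUO 3, 1 with averaging, 9 after median centring and 5 with the replicate block. In the fit of the 6 arrays alone that count was 3 without the replicate block and 5 with it.

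Some genes varied widely within a group. The largest SD of log2 values within sham belonged to Aldh1a3, a retinaldehyde dehydrogenase (61.5, 611 and 233 on the sham arrays and 194, 79.2 and 90.9 on the UUO arrays), Adipoq, adiponectin (66.4, 582 and 728 on the sham arrays and 2021, 1652 and 2728 on the UUO arrays), Rock1, a kinase of actin contraction (375, 232 and 41.5 on the sham arrays and 432, 270.5 and 191 on the UUO arrays), Marchf7, a ubiquitin ligase (545, 312 and 65.0 on the sham arrays and 737, 631 and 327 on the UUO arrays), and Akr1c14, a steroid reductase (653, 789 and 111 on the sham arrays and 389.6, 285 and 198 on the UUO arrays). Rock1, Marchf7 and Akr1c14 were lowest on sham 3. Within UUO the most variable were Alb, Ly6d (166, 276 and 284 on the sham arrays and 269, 195 and 998 on the UUO arrays), Saa3 (125, 125 and 107 on the sham arrays and 208, 266 and 919 on the UUO arrays), Actg2 (125, 159.9 and 193 on the sham arrays and 155, 222 and 851 on the UUO arrays) and Zfp617 (122, 138 and 51.7 on the sham arrays and 278, 294 and 70.5 on the UUO arrays). Ly6d, a surface protein of squamous epithelium, was highest on UUO 3, and Zfp617, a zinc finger gene, was lowest there. None of these 10 genes passed between UUO and sham.

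A pair of genes that differ between male and female kidney stood lower in sham 3. Slco1a1, an organic anion transporter higher in males, read 658, 736 and 217 on the sham arrays and 210.2, 158 and 174 on the UUO arrays. Slc7a13, a transporter of the late proximal tubule, read 13126, 12707 and 7421 on the sham arrays and 3879, 4277 and 6087 on the UUO arrays. In both, sham 3 lay well below sham 1 and sham 2. Summed over the 8 male-high genes measured, sham 3 differed less in proportion, with 137959, 139812 and 129459 on the sham arrays. Of these 8 genes 6 fell with UUO (median -0.93). The 6 female-high genes measured summed to 13871, 12073 and 11114 on the sham arrays, so sham 3 was lowest there too. A difference in sex between the mice was not tested. The Y-linked Eif2s3y read 118, 107 and 54.9 on the sham arrays and 194, 179.7 and 106 on the UUO arrays, and Xist read 57.7, 75.5 and 64.4 on the sham arrays and 48.2, 48.7 and 64.8 on the UUO arrays, near background on all 6 arrays. The 6 lower of the male-high list became 2 without sham 1, sham 2, UUO 1 or UUO 2 and 0 with averaging.

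No gene's response to obstruction was shown to differ between TIMP2-/- and WT. In WT 2059 genes (16.6%) rose and 1979 (16.0%) fell. The difference of the 2 responses, tested for each of 22626 probe sets, passed for 0 (0%) in the limma fit, and the smallest adjusted p was 0.191. At an unadjusted p under 0.05 there were 2015 probe sets (8.91%). With arrays weighted by their agreement the count was 1767, without WT UUO 3 it was 3, and without WT sham 2 it was 1. A p that misses the threshold does not show that the responses were alike. The smallest p was that of Timp2, with a difference of -1.46 ± 0.22. Next was Cxcr6, a chemokine receptor of T cells, which read 22.0, 31.3 and 30.6 on the sham arrays and 65.7, 68.7 and 69.0 on the UUO arrays (1.30 ± 0.14, adjusted p = 1.63e-05), and 37.8 ± 6.07 in WT sham and 45.1 ± 3.65 in WT UUO (SD, n = 3). The difference of its responses was 1.03 ± 0.20 (adjusted p = 0.501). All of these Cxcr6 intensities were close to background, so its fold changes and their difference are inexact in size. WT UUO 2 and WT sham 3 stand apart from their groups, and their part in the values below was not tested. Whether hepatocyte transcripts on a single WT array set the WT hepatocyte median was not tested either. List medians in TIMP2-/- and WT were 2.60 and 3.15 for macrophage genes, 2.27 and 3.20 for fibroblast genes, 2.23 and 2.17 for tubular injury, -1.24 and -2.28 for the late proximal tubule and -0.43 and 1.43 for hepatocyte genes. They are descriptions and were not tested against each other.

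**Figure D5:**
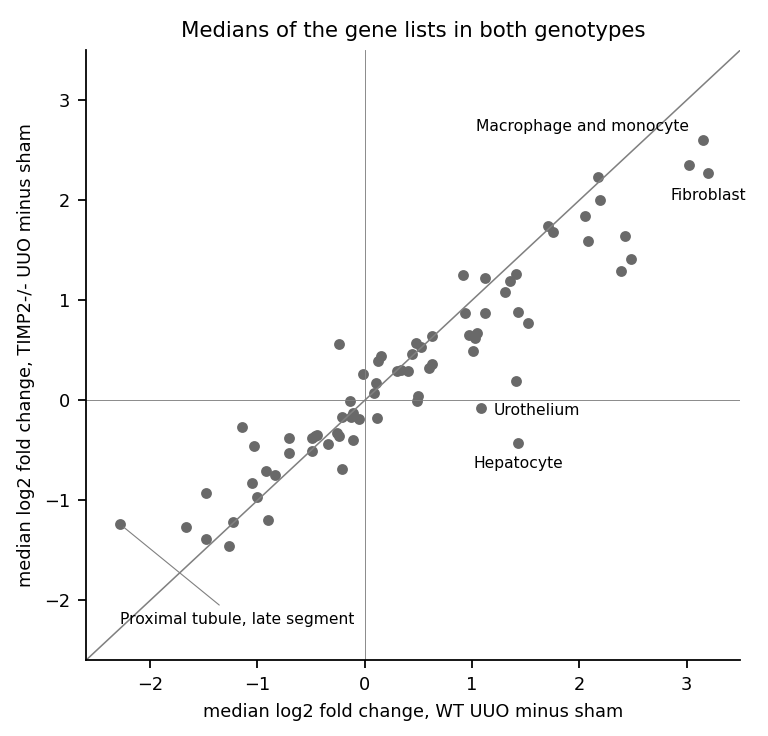
Median log2 fold change, UUO minus sham, of each gene list (points) in WT (horizontal axis) and TIMP2-/- (vertical axis); the diagonal marks equal medians. Most points lie near the diagonal, and the hepatocyte list is the farthest below it, at -0.43 in TIMP2-/- and 1.43 in WT.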

How the data were processed

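Kidney RNA of 18 mice was hybridised to Mouse430A_2 arrays, and the comparison uses the 6 TIMP2-/- arrays, 3 per group. The values are linear intensities deposited by the authors, 1 per probe set and array. RMA is named in the submitters' processing notes; how its log values became linear and the genome build are not given in the sources used here.

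Intensities were turned to log2 and fitted with limma 3.58.1 in R 4.3.3 (lmFit and eBayes, 6 group means over 18 arrays, 12 residual degrees of freedom). P-values were adjusted by Benjamini-Hochberg over 22626 probe sets, after 64 control probe sets were left out. A single symbol was given to 20380 probe sets, several to 691 and none to 1555, and the brightest probe set stood for each of 12393 genes. Symbols came from the platform's annotation, and 12369 matched the RefSeq table of GRCm38.p6. The number of arrays limits the precision. The labels call the samples biological replicates without naming the animals' litters or surgery days.

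The members and gene lists were chosen with earlier results of these data known. Named genes were Timp1 to Timp4, Reck, Mmp2, Mmp14, Havcr1 and Lcn2, the 12 largest rises and falls with groups that did not overlap and a mean intensity of 100 or more in a group, from each list the 3 brightest called members and the largest change in each direction, and the 5 genes of largest spread within each group; for the difference from WT none passed. Genes named as not passing, and Cxcr6, were chosen after their values were seen.

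Same-numbered sham and UUO arrays of TIMP2-/- deviated together (r = 0.36, 0.28 and 0.56 over probe sets). Replicate 1 of one group correlated as well with replicate 2 of the other (0.34 and 0.36). The labels name no pairs. The main fit holds no pairing, and pairing by number was run only as an alternative. The replicate block gave 8524 probe sets in the fit of 18 arrays and 7847 when set in the TIMP2-/- arrays only, against 7922 without it; in the fit of the 6 arrays alone it gave 11828 against 8466. The fit and the motif search were tested on simulated data. Alternatives covered the arrays left out, normalization, probe set choice, filter, pseudocount, weights and pairing. Figures were drawn with matplotlib 3.10.9.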

Additional observations from a re-analysis of the deposited data

How the results depend on the processing

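Of the 278 named genes that passed, 140 kept direction and call under every alternative that gave them a value, 110 of them under all 22 and 30 under fewer, and 138 lost the call or changed sign under 1 or more. Of all probe sets 7922 passed in the comparison of UUO with sham. The count was 4692 with 1 value per gene from its brightest probe set and 4628 when its probe sets were averaged, which test fewer features, and 5136 with suffixed probe sets left out. It was 15954 with array weights and 2440 with replicates 1 and 2 averaged, an alternative chosen after seeing the data that has fewer samples. Leaving out 1 array gave 4033 (without UUO 2) to 9630 (without UUO 3). The 6 arrays fitted alone gave 8466, and 11828 with the replicate block. Gene list members called fell from 603 to 325 and named genes called from 278 to 152 with that averaging. The difference from WT, 0 probe sets, was 1 with only the arrays compared, 1767 with array weights and 0 to 3 with 1 array left out. Timp2 after UUO lay below WT by -1.63 to -2.39 under the 19 alternatives run for it and passed in each of those. With suffixed probe sets left out the sign turned for Acta2 (-0.42), Egfr (0.43), Psma5 (-0.21), Rps18 (-0.10), Rps24 (-0.74), Tmsb10 (-0.27) and Tnni2 (0.17). Of these only Rps24 passed in the turned direction (limma adjusted p = 0.0102). Apart from the fewer features or samples named, the cause was not tested. Changes against a group near the 25th percentile of intensity are inexact in size, and with 3 arrays a group small changes can be missed.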
